A study of Rattus with 6 samples.

Results

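The cytosolic ribosomal protein genes of rat bone marrow mesenchymal stem cells were examined in 6 RNA sequencing libraries. Members were the protein-coding rows of the deposited table whose symbol has the form of a cytosolic ribosomal protein name, that is Rpl or Rps followed by a number, Rplp0 to Rplp2, or Rpsa. The rule found 94 genes among the 16690 of the table, and no measured value entered it. By symbol, 77 are standard members (43 of the large subunit, 3 of the stalk and 31 of the small subunit) and 17 are copies named after a standard gene or related to one, such as Rpl39l, Rpl22l1 and Rps4y2. All 94 gene identifiers were found in the RefSeq gene table of the GRCr8 assembly, where 2 now carry another symbol (Rpl31l4 and Rpl39l).

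The cells came from the leg bones of wild-type Sprague Dawley rats and were grown in culture. Chronic kidney disease (CKD) had been modelled in the animals behind 3 libraries, and the other 3 libraries came from healthy controls. The labels give neither the way CKD was induced, nor the age of the animals, nor which animal gave each library. The protocol states use of the cells between passages 3 and 5, and a flow cytometry check of the cells as positive for CD29 and CD90 and negative for CD34 and CD45. The protocol speaks of RNA from exosomes and the design text of RNA from the cells, and which was sequenced is not settled here. Groups follow the titles and column codes. The disease model tag says control for CKD replicate 1 and CKD for control replicate 2. Library names that share a start join CKD replicates 1 and 3, and control replicates 1 and 2. The p-values therefore reflect how much these libraries differ among themselves, and part of that may be technical.

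The ribosome is built from a small subunit, which reads the messenger RNA, and a large subunit, which joins the amino acids. Each ribosome holds 1 copy of nearly every ribosomal protein, and the stalk proteins Rplp0, Rplp1 and Rplp2 recruit the elongation factors. Messenger RNAs of ribosomal proteins share a pyrimidine-rich start that places their translation under control of the kinase mTORC1. Outside the ribosome, Rpl5 and Rpl11 bind the p53 regulator Mdm2 when ribosome assembly is disturbed.

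Recovered depth was between 34404037 and 46892613 fragments per library. Of 10 markers of marrow stroma, 9 passed the filter, and their summed level in FPKM (fragments scaled by gene length and library depth) was carried mostly by the collagen genes Col1a1 and Col1a2. The sum was between 6747 and 11519 FPKM in CKD and between 7863 and 12098 FPKM in control. Lepr, the leptin receptor of marrow stroma, was at 0.109 to 0.246 FPKM and did not pass, and Nt5e, which encodes CD73, was at 8.53 to 38.8 FPKM. Of 18 haematopoietic and macrophage markers, 15 passed the filter and 0 were called by limma's adjusted p. An unadjusted p under 0.05 was reached by 11, all higher in CKD, against 14.6% of all tested genes in that direction. The summed level of all 18 was 316, 3535 and 2382 FPKM in the CKD libraries (replicates 1, 2 and 3, the order used throughout). In the controls it was 435, 23.4 and 14.6 FPKM. Ptprc, which encodes the leukocyte antigen CD45, was at 0.783, 15.5 and 11.4 FPKM in CKD and at 1.33, 0.014 and 0.0204 FPKM in control. Proliferation markers were higher in every CKD library (107 to 158 FPKM in sum) than in every control library (45.5 to 67.5 FPKM). Of the 12, 7 were called higher by limma's adjusted p, against 1.33% of all tested genes. Endothelial markers were at most 2.41 FPKM in sum, and 0 of the 4 erythroid markers were found in the table.

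Ribosomal protein messages were among the abundant ones in every library. The mean level over the 6 libraries ran from 78.2 FPKM (Rpl22) to 1334 FPKM (Rpl41) over the 77 standard genes, with a median of 500.5 FPKM. The median of all 10638 tested genes was 8.06 FPKM. The median was 408 FPKM for the large subunit and 578 FPKM for the small subunit, on the same scale per length. Together the 94 genes took between 2.38% and 3.5% of all recovered fragments and between 7.95% and 11.6% of the summed FPKM. FPKM divides by gene length, so short messages weigh more in the latter share.

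At the upper end stood 4 genes whose libraries did not separate by group. Rpl41, which encodes the smallest protein of the large subunit, was at 1354, 1349.8 and 1289 FPKM in CKD and at 1628, 1173 and 1210.1 FPKM in control. Rpl23a, a protein near the exit of the peptide tunnel, was at 1020.1, 1187 and 1017 FPKM in CKD and at 1290.1, 869.7 and 889.7 FPKM in control. Rpsa, a small-subunit protein also known as the laminin receptor, was at 998, 1088 and 1046 FPKM in CKD and at 1200.1, 820.4 and 816 FPKM in control. In all 3 of these, control replicate 1 was the highest library and control replicates 2 and 3 were the lowest. Rpl23, which can also bind Mdm2, followed at 834, 1049 and 954 FPKM in CKD and at 1072, 728 and 778 FPKM in control. Rpl22, the lowest standard gene and a large-subunit protein, was at 78, 83.9 and 76.6 FPKM in CKD and at 91.7, 66.7 and 72.5 FPKM in control.

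Most copies were lower, with a median of 16.7 FPKM and a range from 0.121 FPKM (Rps12l4) to 203 FPKM (Rpl30l2). The 4 genes with the lowest means were Rps12l4, Rpl31l2, Rps12l3 and Rps12l2. None of these 4 passed the filter of at least 1 FPKM in at least 3 libraries, and each rested on 25 fragments or fewer per library. The order of levels among the standard genes was nearly the same everywhere. Across these 77 genes, Pearson's r of log2 levels between libraries was 0.974 to 0.996 over the 15 pairs of libraries, which is a description across genes that share each library.

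**Figure D1:**
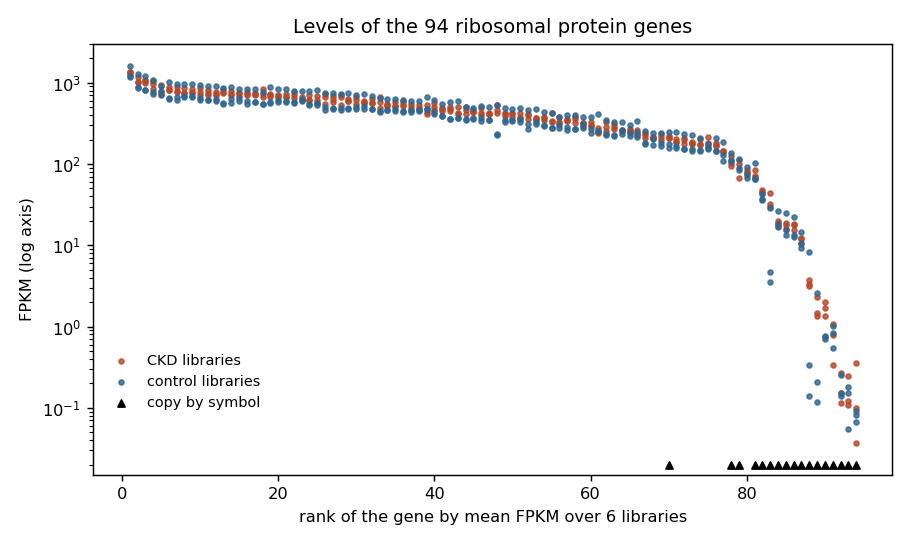
FPKM of the 94 ribosomal protein genes on a log axis, against the rank of the gene by its mean over 6 libraries, with 1 point per library (red CKD, blue control) and triangles marking the copies. The standard genes run from 1334 to 78.2 FPKM on average, and the copies Rpl30l2 (203 FPKM), Rps27l (113 FPKM) and Rpl22l1 (94.4 FPKM) stand above Rpl22 while the other copies lie at the right end.

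Beyond the level of each gene, the standard genes moved together from library to library. Summed over the 94 genes, the level was 39057, 42853 and 39584 FPKM in the CKD libraries and 48256, 32789.7 and 33831 FPKM in the controls. Control replicate 1 was the highest of the 6 libraries, the other controls were the lowest, and the CKD libraries lay between them. The mean was 40498 ± 2056 FPKM (SD, n = 3) in CKD and 38292 ± 8645 FPKM (SD, n = 3) in control, a ratio of 1.06. Within the control group, replicate 1 was 1.45 times the mean of replicates 2 and 3. In bulk samples, a smaller share of cells that make many ribosomes and less ribosomal protein RNA per cell cannot be told apart.

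The same order held for single genes. Control replicate 1 was the highest library in 72 of the 77 standard genes, against 16.0% of all tested genes. Control replicates 2 and 3 were both below every other library in 69 of 77, against 25.1% of all tested genes. Both held in 65 of 77 genes, against 5.33% of all tested genes. Control replicate 1 exceeded the mean of the other controls in 77 of 77 standard genes, with a median ratio of 1.45 and a range from 1.15 (Rps10) to 2.3 (Rpl17). Over all tested genes with a value that ratio had a median of 0.996.

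Few genes departed from this order, and those named here were chosen after their values were seen. CKD replicate 2 was the highest library for Rpl18 and Rpl27, and CKD replicate 1 for Rplp1 and Rps10. In Rpl18 the lead was slight, at 420.1 FPKM in CKD replicate 2 and 419.6 FPKM in control replicate 1. Control replicates 2 and 3 were not both the lowest in Rpl10a, Rpl12, Rpl37, Rplp1, Rps20, Rps21, Rps28 and Rps29.

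The median deviation of the 77 genes from their own mean, on the log2(FPKM + 1) scale, was -0.01, 0.13 and 0.02 in CKD replicates 1, 2 and 3. It was 0.30, -0.25 and -0.21 in control replicates 1, 2 and 3. Large and small subunits gave nearly equal values, 0.30 and 0.32 in control replicate 1 and -0.23 and -0.26 in control replicate 2. The median over all tested genes stayed between -0.03 and 0.07. Scaling the libraries by size factors gave 0.01, 0.04 and -0.03 in CKD and 0.35, -0.21 and -0.16 in control, so the high and low libraries were the same. The library order of the haematopoietic markers was another one, with CKD replicates 2 and 3 highest. Their median deviation was -0.62, 3.06 and 2.73 in CKD and 0.41, -2.74 and -2.81 in control.

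**Figure D2:**
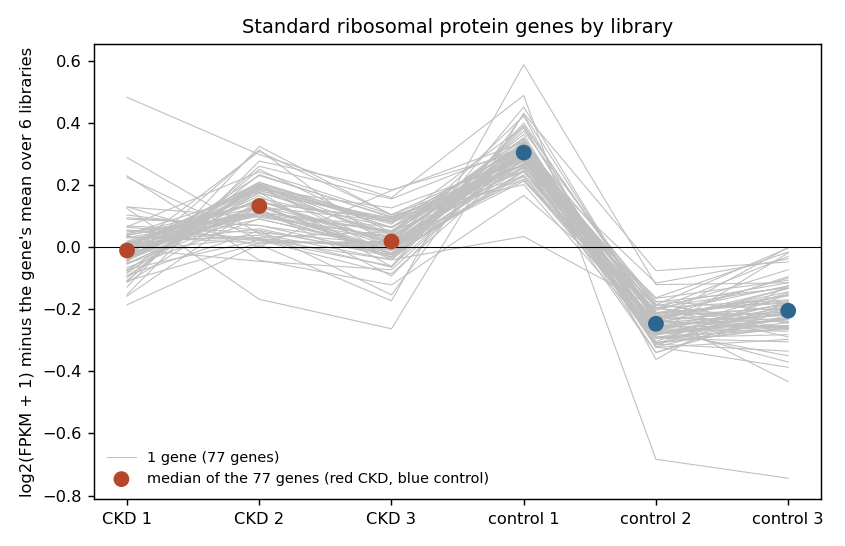
Deviation of each of the 77 standard ribosomal protein genes from its own mean over 6 libraries, in log2(FPKM + 1), by library (grey lines), with the median over genes (red CKD, blue control). The median is at 0.30 in control replicate 1 and at -0.25 and -0.21 in the other controls, and the CKD medians lie between -0.01 and 0.13.

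CKD and control were compared to ask which ribosomal protein genes differ between stem cells of diseased and healthy animals. No ribosomal protein gene was called. By limma's moderated test with Benjamini-Hochberg adjustment over all 10638 tested genes, 0 of 90 tested members rose, against 1.33% of all tested genes. In the other direction 0 of 90 fell, against 0.733% of all tested genes. At an unadjusted p under 0.05 stood 3 members, Rpl26l1, Rpl39l and Rpl7l1, all higher in CKD, where 14.6% of all tested genes reached that level in that direction. Another tool, limma-voom on the recovered counts, also called 0.

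Among the members, 77 had a positive and 13 a negative log2 fold change, against 6321 positive and 4317 negative over all 10638 tested genes. The median of the members was 0.10, beside 0.05 over all tested genes. The authors' deposited table gives small values of both signs for the members, such as -0.07 for Rpl10 and 0.07 for Rpl11. For the 77 standard genes the log2 fold change ran from -0.23 (Rpl12) to 0.63 (Rpl17), the median standard error was 0.18 and the adjusted p was between 0.344 and 0.987. The groups overlapped in every standard gene. Over all tested members the groups did not overlap in 3, with CKD higher, against 18.3% of all tested genes, and in 0 with CKD lower, against 9.59%. The 95% interval of Rps6, the small-subunit protein phosphorylated downstream of mTORC1, was -0.31 to 0.62 around a log2 fold change of 0.15. With 3 libraries a group, differences of either sign inside that interval were not excluded.

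Genes of known roles showed the same picture. Rpl5 was at 443, 488 and 469 FPKM in CKD and at 547, 387 and 394 FPKM in control (log2 fold change 0.09 ± 0.16, SE). Its partner Rpl11 was at 271, 315 and 285 FPKM in CKD and at 333, 222 and 228 FPKM in control (0.17 ± 0.18, SE). Rpl26, which binds the p53 message, was at 704, 808 and 758 FPKM in CKD and at 913, 606 and 608 FPKM in control. In all 3 genes both extremes were control libraries, so the groups overlapped.

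On the small subunit, Rps6 was at 776, 886 and 789.7 FPKM in CKD and at 964, 619 and 662 FPKM in control. Rps3, which lines the entry of the messenger RNA channel, was at 574, 683 and 625 FPKM in CKD and at 741, 477 and 494 FPKM in control. Rps19, the protein most often mutated in Diamond-Blackfan anaemia, was at 425, 411 and 389.6 FPKM in CKD and at 494, 328 and 349.7 FPKM in control. These genes had their highest and lowest values within the control group. Rps27a, which is made as a fusion with ubiquitin, was at 396, 362 and 410.1 FPKM in CKD and at 457, 310.3 and 267 FPKM in control. Rps4x, the X-linked form of the small-subunit protein S4, was at 461, 558 and 504 FPKM in CKD and at 606, 432 and 415 FPKM in control.

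The stalk genes had log2 fold changes near 0. Rplp0 was at 702, 689 and 674 FPKM in CKD and at 831, 574 and 611 FPKM in control. Rplp2 was at 214, 209 and 207 FPKM in CKD and at 239.6, 169.6 and 203 FPKM in control. In both, control replicate 1 was highest and control replicate 2 lowest. Rplp1 was at 941, 779.6 and 737 FPKM in CKD and at 900.3, 699 and 786 FPKM in control, with CKD replicate 1 highest. The log2 fold changes of the 3 stalk genes were between 0.04 and 0.05.

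**Figure D3:**
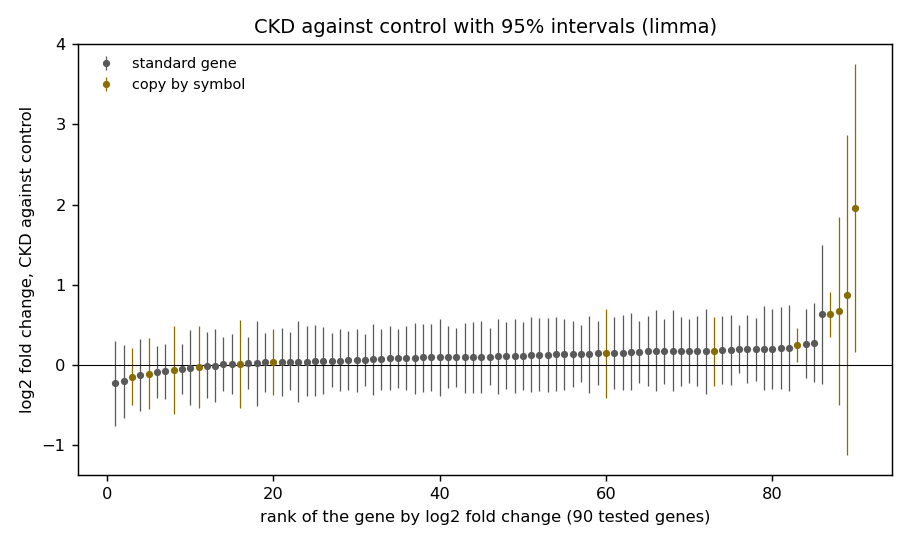
Log2 fold change of CKD against control on the log2(FPKM + 1) scale for the 90 tested ribosomal protein genes, ordered by size, with 95% intervals from limma and copies in brown. The interval includes 0 for every standard gene, and the 3 intervals above 0 belong to the copies Rpl7l1, Rpl26l1 and Rpl39l.

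The count depended on which libraries were compared. Among libraries left out singly, control replicate 1 changed the count most. Without it 12 members were called higher (8 standard genes and 4 copies), against 6.89% of all tested genes. Without CKD replicate 1 the copy Rpl26l1 alone was called (adjusted p = 0.032 by limma). Rpl26l1 reached 1 FPKM only in CKD libraries, and the filter from all 6 libraries was kept for this fit. Its call therefore rests on a gene that entered through the group where it is high. With both first replicates left out, CKD replicates 2 and 3 were compared with control replicates 2 and 3. There 75 of 90 members were called higher, 66 of them standard genes, against 34.7% of all tested genes. Only the copy Rps27l was called lower in that comparison, against 20.3% of all tested genes. The limit given for Rpl26l1 also holds for the calls of Rps4y2 and Rpl10l1 without control replicate 1. It holds for all of these copies without both first replicates.

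In those 4 libraries the standard genes stood at a median of 1.23 times the control level, and 76 of 77 were above 1, the exception being Rps20 at 0.899. Over all tested genes with a value the median was 1.07, and 6371 of 10632 were above 1. Comparing the first replicates with each other gave the opposite direction for the standard genes. CKD replicate 1 was at a median of 0.802 times control replicate 1, and 75 of 77 genes were below 1. Over all tested genes with a value that median was 1, and 5235 of 10636 were below 1. Haematopoietic markers, by their sum, also changed direction between these comparisons. Their sum was 3535 and 2382 FPKM in CKD replicates 2 and 3, and 23.4 and 14.6 FPKM in control replicates 2 and 3. In the first replicates it was 316 FPKM in CKD and 435 FPKM in control. The first replicates also stood apart in the summed stromal markers, which Col1a1 and Col1a2 mostly carried. That sum was 11519 FPKM in CKD replicate 1 and 12098 FPKM in control replicate 1, against 6747 to 8093 FPKM in the other libraries. By median deviation the stromal markers did not set them apart, at -0.13 and -0.11 against -0.29 to 0.22 elsewhere. Cxcl12, Eng, Nt5e and Pdgfra were lower in both first replicates than in the other libraries. The part of the stromal markers in the counts of called members was not tested. With the averaged haematopoietic markers added as a covariate, over all 6 libraries, the median log2 fold change of the members was -0.21 and 0 members were called.

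Some genes departed from the shared movement. On the scale of log2(FPKM + 1) minus the library's median over the standard genes, the SD over 6 libraries had a median of 0.0722. It was lowest for Rpl37a, at 0.0149, and highest for Rpl17, at 0.429. Relative to that median, the groups did not overlap with CKD higher in 14 standard genes and 4 copies, against 11.0% of all tested genes. With CKD lower this was so for Rpl12, Rps28, Rps29 and the copy Rpl37l1, against 3.49% of all tested genes. This count was made after the data were seen, carries no test, and takes the median from the members themselves.

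Rpl17, a large-subunit protein near the tunnel exit, was at 531, 468 and 425 FPKM in CKD and at 533, 236 and 227 FPKM in control. Control replicate 1 was level with the highest CKD library, and the other controls were below every other library. Its log2 fold change was 0.63 ± 0.35 (SE, adjusted p = 0.344 by limma), and it was 1.03 ± 0.11 (adjusted p = 0.0153) without control replicate 1. Rpl12, which sits at the base of the stalk, was at 244, 279.7 and 247 FPKM in CKD and at 418, 256 and 257 FPKM in control. Only control replicate 1 stood out there (log2 fold change -0.23 ± 0.21, SE, adjusted p = 0.552).

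Rps20, a small-subunit protein, was at 538, 439.8 and 411 FPKM in CKD and at 667, 469 and 478 FPKM in control. Rps28 was at 236, 261 and 226 FPKM in CKD and at 338, 213 and 251 FPKM in control. In both genes the groups overlapped and the log2 fold change was negative, at -0.20 and -0.13.

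The widest spreads were among the copies, several of which were low in control replicates 2 and 3. Rpl39l, a form of Rpl39 known from male germ cells and from some tumours, was at 44.1, 29.6 and 32.2 FPKM in CKD and at 29, 4.67 and 3.55 FPKM in control. Every CKD library was above every control library, but control replicate 1 lay just under the CKD range. Its log2 fold change was 1.96 ± 0.73 (SE, adjusted p = 0.199 by limma), and it was 2.82 ± 0.21 (adjusted p = 0.00699) without control replicate 1. Rpl39 itself was at 376, 423 and 363 FPKM in CKD and at 489, 329.8 and 363 FPKM in control. The copy thus took 10.5%, 6.54% and 8.14% of the sum of both genes in CKD, and 5.6%, 1.4% and 0.969% in control.

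Rps4y2, a copy related to Rps4x, was at 3.72, 3.17 and 3.36 FPKM in CKD and at 8.22, 0.333 and 0.14 FPKM in control. The highest and the lowest libraries were both controls, and the 2 low ones held 13 and 5 fragments. The log2 fold change was 0.87 ± 0.81 (SE, adjusted p = 0.561 by limma), and it was 1.84 ± 0.11 (adjusted p = 0.00474) without control replicate 1. Rpl10l1, a copy of the large-subunit gene Rpl10, was at 2.34, 1.34 and 1.48 FPKM in CKD and at 2.57, 0.117 and 0.205 FPKM in control. Its low libraries held 5 and 8 fragments, and Rpl10 itself was at 744, 849.9 and 751 FPKM in CKD and at 973, 684 and 669.6 FPKM in control. The log2 fold change of Rpl10l1 was 0.67 ± 0.47 (SE, adjusted p = 0.445), and 1.21 ± 0.18 (adjusted p = 0.028) without control replicate 1. Without that library both copies, Rps4y2 and Rpl10l1, reached 1 FPKM only in CKD libraries, and the filter from all 6 libraries was kept. Their calls there rest on genes that stayed in through the group where they are high.

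Rpl26l1, a close copy of Rpl26, gave the lowest adjusted p of the members. It was at 2.02, 1.71 and 1.34 FPKM in CKD and at 0.737, 0.767 and 0.702 FPKM in control. All 3 controls were close together and below every CKD library. The means were 1.69 ± 0.343 and 0.735 ± 0.0323 FPKM (SD, n = 3 each), and the log2 fold change was 0.63 ± 0.12 (SE, adjusted p = 0.0644 by limma). It passed the filter only through the CKD libraries, and it rested on 45 to 61 fragments in CKD and 21 to 27 in control. In the authors' deposited table its log2 fold change is 1.12 with q = 0.0356, where 6.72% of all its genes were higher with a q under 0.05. It was the only member with such a q in that table.

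Rpl7l1, a relative of Rpl7 that acts in assembly of the large subunit, was at 44.3, 47.3 and 45.8 FPKM in CKD and at 42.6, 37.1 and 36.2 FPKM in control. The groups did not overlap and lay close together (log2 fold change 0.24 ± 0.09, SE, adjusted p = 0.185 by limma). Without control replicate 1 it was 0.31 ± 0.06 (adjusted p = 0.0461). Rpl7 itself was at 648, 759 and 708 FPKM in CKD and at 792, 566 and 575 FPKM in control.

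**Figure D4:**
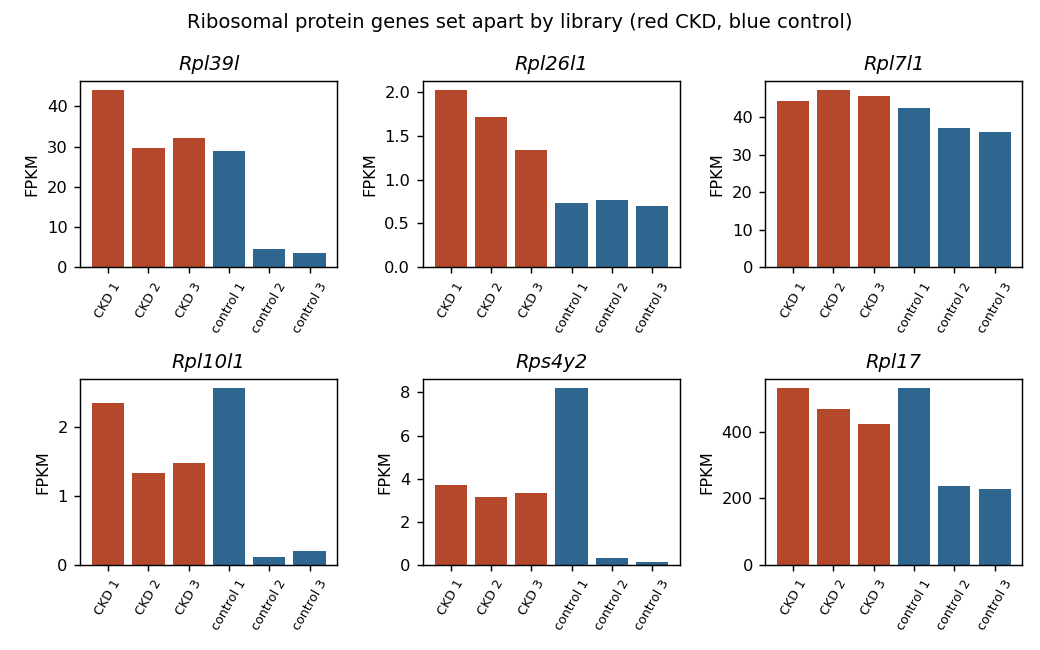
FPKM of 5 copies and of Rpl17 in each library (bars from 0, red CKD, blue control, 1 library per bar, each panel with its own axis). Control replicates 2 and 3 are low for Rpl39l, Rpl10l1, Rps4y2 and Rpl17 while control replicate 1 is not, and for Rpl26l1 all 3 controls lie between 0.702 and 0.767 FPKM.

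In the other tested copies the groups overlapped. Rpl22l1 was as abundant as its relative Rpl22, at 67.3, 111 and 101 FPKM in CKD and at 115, 89.2 and 83.7 FPKM in control. It took 46.3% of the sum of both in CKD replicate 1 and 53.6% to 57.2% in the other libraries. Rps27l, a relative of Rps27 and a known p53 target, was at 126, 103 and 94.1 FPKM in CKD and at 135, 109 and 113 FPKM in control, with Rps27 at 415, 497 and 421 FPKM in CKD and at 601, 371 and 372 FPKM in control. Rpl30l2 was above its parent Rpl30, at 211, 223 and 207 FPKM in CKD and at 245, 156 and 177 FPKM in control, with Rpl30 at 178, 189 and 179 FPKM and at 225, 145 and 154 FPKM. Rpl30l2, Rpl27l1, Rpl31l4, Rpl37l1, Rpl5l1 and Rps18l1 had control replicate 1 as their highest library, as most standard genes did. Near-identical copies can split reads between them, so the levels of these copies and their parents are uncertain.

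A further 114 genes of the table are described as cytosolic ribosomal proteins but have a symbol outside the rule, most of them low, with 90 under a mean of 10 FPKM. Together they amounted to 3.22% to 3.53% of the members' summed FPKM. Of the 46 tested, 0 were called and 4 had an unadjusted p under 0.05, against 22.1% of all tested genes in either direction. The following were chosen after their values were seen. An L12-like gene (LOC102555453) was at 171, 168 and 182 FPKM in CKD and at 144, 84.1 and 83.5 FPKM in control, so every CKD library was above every control library (log2 fold change 0.78 ± 0.22, SE, adjusted p = 0.133 by limma).

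With its 3 copies added, the L12 sum was 425, 458 and 436 FPKM in CKD and 571, 344 and 345 FPKM in control, which is the library order of most standard genes. Rpl12 alone does not have that order. The copies made up 42.5%, 38.9% and 43.5% of the L12 sum in CKD and 26.7%, 25.6% and 25.5% in control. An L28-like gene (LOC100362069) was at 4.47, 4.62 and 5.8 FPKM in CKD and at 33.7, 12.9 and 15.4 FPKM in control (log2 fold change -1.75 ± 0.35, SE, adjusted p = 0.0738 by limma). All 3 controls were above the CKD libraries, while Rpl28 was at 144, 142 and 143 FPKM in CKD and at 189, 109.6 and 129.5 FPKM in control. An S10-like gene (LOC100361240) was at 0.668 FPKM in CKD replicate 1 and between 4.84 and 13.8 FPKM in the other libraries. Rps10 itself was highest in CKD replicate 1, at 213 FPKM against 152 to 179.5 FPKM elsewhere. How reads were shared between these genes and their copies was not tested.

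Other parts of the translation machinery were set beside the members. Fau and Rack1 encode ribosomal components under other names. Both had control replicate 1 as their highest library, and neither was called. Fau, which fuses a ubiquitin-like protein to S30, was at 289, 283 and 252 FPKM in CKD and at 332, 252 and 258 FPKM in control. Rack1, a scaffold protein on the small subunit, was at 421, 425 and 413 FPKM in CKD and at 531, 355 and 363 FPKM in control. Elongation and termination factors had 0 called of 11 tested and a median log2 fold change of 0.01. Their median deviation was 0.15 in control replicate 1 and -0.15 in both other controls. Initiation factors had 0 called of 35, a median of 0.11, and a median deviation of 0.05 in control replicate 1.

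Genes of ribosome assembly, which process ribosomal RNA and build the subunits in the nucleolus, shared the low controls with the ribosomal protein genes but seldom the high one. The log2 fold change was above 0 in 80 of the 85 tested genes and its median was 0.32, and 51 had an unadjusted p under 0.05, against 22.1% of all tested genes in either direction. Of the 85, 1 was called higher, against 1.33% of all tested genes, a share near the background. It was Rrs1, an assembly factor that brings Rpl5 and Rpl11 into the large subunit, which rose from 5.94 ± 0.352 FPKM in control to 8.78 ± 0.576 FPKM in CKD (SD, n = 3 each, log2 fold change 0.50 ± 0.08, SE, adjusted p = 0.0471 by limma). Control replicate 1 was the highest library in 2 of the 85 genes, beside 72 of 77 standard ribosomal protein genes. Control replicates 2 and 3 were both the lowest in 66 of the 85, beside 69 of 77. The median deviation of the assembly genes was 0.19, 0.16 and 0.13 in the CKD libraries and 0.01, -0.24 and -0.25 in the controls. Proliferation markers were higher in CKD as well, and their part in these values was not tested.

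RNA polymerase I and its factors, which make ribosomal RNA, had 0 called of 15 tested and a median of 0.20. Genes of mTORC1 and translation control had 0 called of 18 and a median of 0.02, and genes of ribosome stress and p53 had 0 called of 11 and a median of 0.03. Mitochondrial ribosomal proteins, the separate set of the mitochondrion, had 0 called of 74 and a median of 0.07. Control replicate 1 was the highest library in 8 of those 74 genes. The difference in library order between these lists and the cytosolic ribosomal protein genes was not tested.

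**Figure D5:**
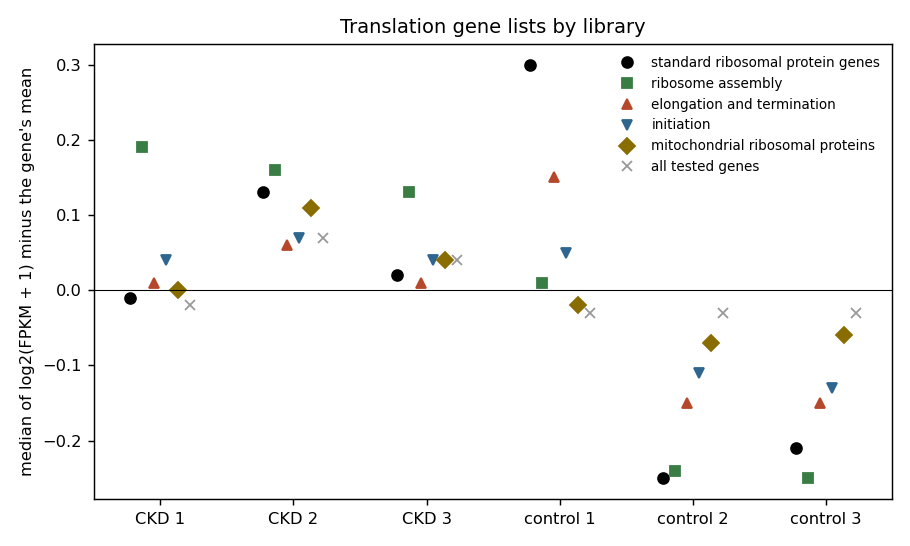
Median deviation of each gene list from the genes' own means over 6 libraries, in log2(FPKM + 1), by library, for the 77 standard ribosomal protein genes, 4 related lists and all tested genes. In control replicate 1 the ribosomal protein genes are at 0.30, elongation and termination factors at 0.15, and ribosome assembly genes at 0.01.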

How the data were processed

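RNA was sequenced from 3 CKD and 3 control libraries, poly-A selected and stranded per the labels' protocols. The submitters' processing notes name the rat build mRatBN7.2, HISAT2 2.1.0 and HTSeq 0.11.2 among other tools, and also DESeq2 1.22.2, and give no settings. The authors deposited, per the file headers, 1 table with FPKM per library and, per group, mean normalized counts, fold changes, log2 fold changes, p-values and q-values.

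All 100140 FPKM values came out as whole fragment counts within 0.01 fragments (largest deviation 0.000419), and these counts were used for depth and alternatives. Intervals come from limma and the spread between libraries. limma 3.58.1 (R 4.3.3) was fitted to log2(FPKM + 1) of every gene that reached 1 FPKM in 3 or more libraries, 10638 genes and 90 of 94 members, with a mean-variance trend and a two-sided test. P-values were adjusted by Benjamini-Hochberg over all tested genes, at 0.05. On the log2(FPKM + 1) scale, a fold change of a low gene is understated. The fit was tested on simulated data with changes set in single genes. Those data held no movement shared by many genes within a library, so the test does not cover that case.

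The members and gene lists were chosen with earlier results of these data known. Named members are the 4 with the largest and the 4 with the smallest log2 fold change, the 4 highest and 4 lowest in level, 13 of known role, and the copies with their parents. Other genes named were chosen after their values were seen. Planned counts of start-site letters and protein properties were not run, and no sequence or coordinate is given, since no sequence of the build was used here. Some genes are not reported here.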

Additional observations from a re-analysis of the deposited data

How the results depend on the processing

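Both counts of called members stayed at 0, and the median log2 fold change of the members between -0.07 and 0.11, under another pseudocount, no filter on low values, size factors, TPM, limma-voom, removal of both libraries with conflicting tags, and grouping by the disease model tag. The ratio of summed FPKM lay between 0.951 and 1.24 over its alternatives. Leaving out 1 library at a time gave 0 to 12 members called higher, 0 called lower, medians from 0.00 to 0.28 and ratios from 0.987 to 1.22. The 12 came without control replicate 1, and 1 without CKD replicate 1. Without both first replicates, 75 members were called higher and 1 lower, with a median of 0.30. There Rpl22l1 (log2 fold change 0.28) and Rpl37 (0.22) turned from negative to called positive, while leaving out 1 library gave -0.21 to 0.15 for Rpl22l1 and -0.15 to 0.15 for Rpl37. With the mean of the haematopoietic markers as a covariate the median was -0.21, and 0 were called. The cause of these changes was not tested.

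With the replicate block, 0 members were called higher and 0 lower, and the median was 0.10. The labels do not tie replicate numbers to shared animals, and deviations of same-numbered libraries correlated at 0.04, -0.03 and 0.11, so the numbers were not taken to pair the libraries. Over 43 named genes and 16 settings, 128 of 688 values changed sign without being called. Several copies rested on few fragments, 5 and 13 in the low libraries of Rps4y2 and 21 to 61 for Rpl26l1. How far depth limits their precision was not separated from the spread between libraries.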
